A study of Mus musculus with 4 samples.

Results

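Among the immune cells sorted from mouse skin wounds, 67 of 19827 passing cells carried transcripts of Cx3cr1 and Adgre1 and none of Ly6c2. Cx3cr1 encodes the fractalkine receptor, Adgre1 encodes F4/80, and Ly6c2 encodes the Ly6C antigen of classical monocytes. The cells were picked from their own raw UMI counts (a UMI marks 1 captured RNA molecule). A member had at least 2 UMIs of Cx3cr1, at least 1 of Adgre1, 0 of Ly6c2, 0 of Hdc (histidine decarboxylase, used to leave out neutrophils), fewer than 5 of Retnla, and fewer than 10 of C1qa, C1qb and C1qc together. In GRCm38 Cx3cr1 lies on chromosome 9 (119901616 to 120069879, minus strand), Adgre1 on chromosome 17 (57358691 to 57483527, plus strand) and Ly6c2 on chromosome 15 (75108158 to 75111970, minus strand). Ly6c2 has a near-identical neighbour, Ly6c1, so its counts are uncertain where reads could be split. The genes of the rule chose the cells, so their levels are descriptions and none of them is tested.

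Excisional wounds of 3 mm were punched into the dorsal skin of 8-week-old mice, and live CD45+ propidium iodide-negative cells were sorted 1 or 5 days post wounding (dpw). CD45 marks all leukocytes. The groups were wild-type C57BL6/J mice (Angptl4+/+) and mice without Angptl4 (Angptl4-/-, which lack angiopoietin-like 4, a secreted inhibitor of lipoprotein lipase), each at 1 and 5 dpw. The labels give no other treatment. Each of the 4 groups was 1 droplet library, and the number of mice behind a library was not given in the sources used here. No difference between genotypes or days therefore has a replicate check, and every interval on such a difference covers counting error only.

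Monocytes enter a wound from the blood as Ly6C-high, CCR2-dependent cells and lose Ly6C as they turn into macrophages, which clear debris, present antigen and steer repair. A second blood monocyte, the nonclassical or patrolling type, has little Ly6C, much CX3CR1, the integrin LFA-1 (Itgal) and the receptor Adgre4. Dermal macrophages and some dendritic cells can also carry CX3CR1, so the gate could hold any of these.

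The libraries held 5346 passing cells in Angptl4+/+ at 1 dpw, 4945 in Angptl4+/+ at 5 dpw, 4798 in Angptl4-/- at 1 dpw and 4738 in Angptl4-/- at 5 dpw. Their totals lay between 26981596 and 32962595 UMIs. Angptl4 itself was counted 47 and 78 times in the Angptl4+/+ libraries at 1 and 5 dpw and 0 times in both Angptl4-/- libraries, as the labels say. Only 50 cell barcodes occurred in more than 1 library.

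Sex-linked transcripts went against the description of the mice. Xist, transcribed from the inactive X chromosome of females, had 12763, 19404, 8827 and 14372 UMIs in Angptl4+/+ at 1 dpw, Angptl4+/+ at 5 dpw, Angptl4-/- at 1 dpw and Angptl4-/- at 5 dpw. The Y-linked genes Ddx3y, Kdm5d and Eif2s3y had 0 in all 4 libraries, and Uty had 3 in Angptl4-/- at 5 dpw. The study's methods describe male mice. Between the genotypes, Ifi202b had 8 and 1 UMIs in the Angptl4+/+ libraries against 1779 and 1302 in the Angptl4-/- libraries, and Hebp1 had 70 and 273 against 1729 and 1491. The part of these differences in any genotype comparison was not tested.

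Members were most numerous in Angptl4+/+ wounds at 5 dpw. There were 7 members in Angptl4+/+ at 1 dpw, 46 in Angptl4+/+ at 5 dpw, 7 in Angptl4-/- at 1 dpw and 7 in Angptl4-/- at 5 dpw. As shares of passing cells these were 0.131% (exact Clopper-Pearson 95% interval 0.0527 to 0.270), 0.930% (0.682 to 1.24), 0.146% (0.0587 to 0.300) and 0.148% (0.0594 to 0.304). At 5 dpw the Angptl4-/- share lay 0.782 percentage points below the Angptl4+/+ share (Newcombe 95% interval of the difference, Angptl4-/- minus Angptl4+/+, -1.10 to -0.502). Among members without markers of other cell types, 22 in Angptl4+/+ and 5 in Angptl4-/-, the difference was -0.339 points (-0.575 to -0.133). At 1 dpw the difference was 0.0150 points (-0.143 to 0.184), which counting error alone spans. From 1 to 5 dpw the share was 0.799 points higher in Angptl4+/+ (0.529 to 1.11), and the change in Angptl4-/- was 0.00185 points (-0.171 to 0.176).

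Angptl4+/+ at 5 dpw was also highest within F4/80+ cells. Of the 433, 963, 351 and 408 cells with Adgre1 and without Hdc, members made up 1.62% in Angptl4+/+ at 1 dpw, 4.78% in Angptl4+/+ at 5 dpw, 1.99% in Angptl4-/- at 1 dpw and 1.72% in Angptl4-/- at 5 dpw. Because cells differ in depth, each cell was also thinned to 5000 UMIs, which left out 2700, 3064, 2553 and 3389 shallower cells. The gate then took 2, 33, 7 and 10 cells, or 0.0756%, 1.75%, 0.312% and 0.741% in the library order used above. Angptl4+/+ at 5 dpw was highest on all 3 scales, while the order of the other libraries changed between scales.

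**Figure D1:**
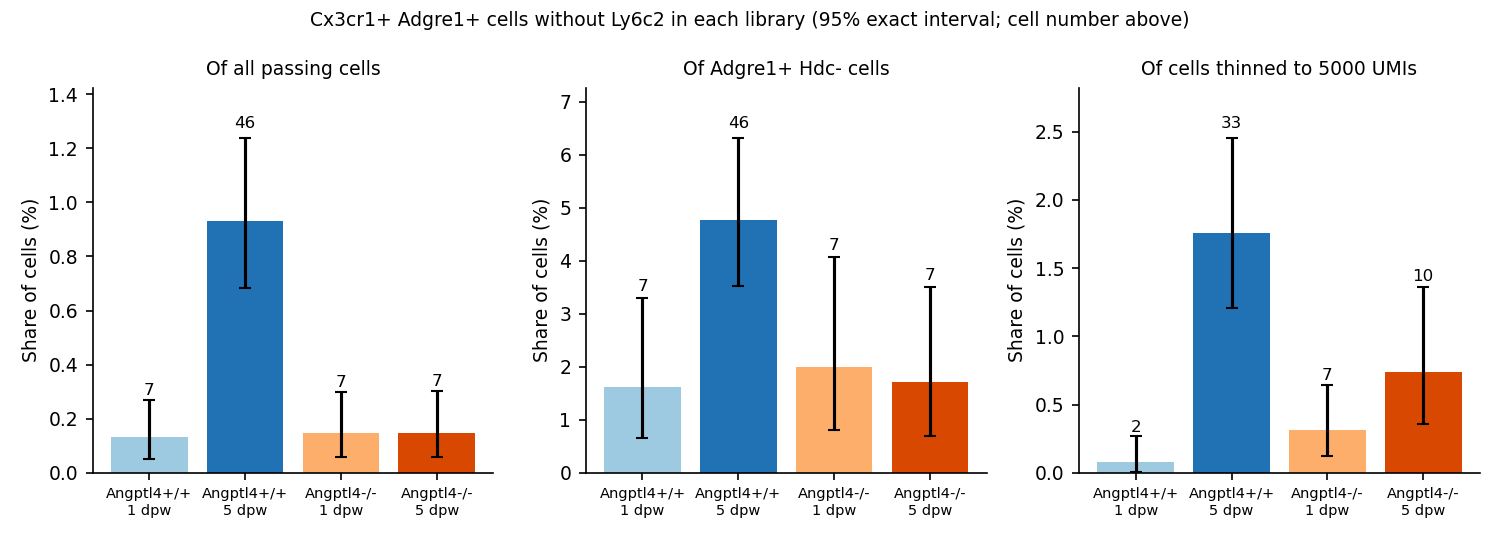
Share of cells meeting the gate (%, y axis) in each of the 4 libraries (x axis), of all passing cells, of Adgre1+ Hdc- cells and of cells thinned to 5000 UMIs. Bars are shares, whiskers exact 95% intervals that cover counting error only, and numbers above are cells. The Angptl4+/+ 5 dpw bar is the highest in each panel, at 0.930%, 4.78% and 1.75%.

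The steps of the gate show where the libraries parted. Cells with at least 2 Cx3cr1 UMIs numbered 135 in Angptl4+/+ at 1 dpw, 573 in Angptl4+/+ at 5 dpw, 100 in Angptl4-/- at 1 dpw and 279 in Angptl4-/- at 5 dpw. After the Adgre1 step 96, 397, 66 and 167 remained, and 12, 197, 11 and 60 of those had no Ly6c2. The last step, on C1q, took the numbers from 8, 115, 8 and 39 to 7, 46, 7 and 7. At 1 dpw most Cx3cr1+ Adgre1+ cells thus carried Ly6c2. Without the C1q condition the genotype difference at 5 dpw was -1.50 points (-2.01 to -1.01), and the Angptl4-/- share was higher at 5 than at 1 dpw, by 0.656 points (0.383 to 0.968).

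Cells near the thresholds were few in number but not rare relative to the members. Members with exactly 2, exactly 3 and at least 4 Cx3cr1 UMIs numbered 14, 10 and 43, and 23 cells with 1 Cx3cr1 UMI met the rest of the rule. Exactly 1 Adgre1 UMI was found in 25 members, and 63 cells with 0 met the rest of the rule. By library those 63 cells numbered 7 and 27 in Angptl4+/+ at 1 and 5 dpw and 6 and 23 in Angptl4-/-. Just outside the Ly6c2 condition lay 26 cells with 1 UMI and 15 with 2, whereas 111 cells had at least 10. Of the members, 56 had no C1q UMI and 3 had between 5 and 9, against 5 cells with 10 to 14 just outside. As a rough guide to free RNA, neutrophils were taken as passing cells with at least 1 UMI each of Csf3r and Cxcr2. No profile of free RNA was estimated, and these rates do not tell free RNA from the cells' own RNA or from doublets. Neutrophils carried a Cx3cr1 UMI in 1.98%, 3.94%, 0.739% and 1.59% of cells in Angptl4+/+ at 1 and 5 dpw and Angptl4-/- at 1 and 5 dpw. Adgre1 was found in 8.11%, 10.7%, 7.78% and 8.84% of them. Neutrophils were shallower, with medians between 3344 and 5192 UMIs against 9606 in the members, and 2 members also met the neutrophil definition. Both positive conditions of the gate, on Cx3cr1 and Adgre1, were met by 16, 35, 7 and 16 neutrophils in the same library order, with the highest number in Angptl4+/+ at 5 dpw. Hdc, which the gate requires to be at 0, was found in 95.5% to 98.2% of neutrophils. Ly6c2, also required to be at 0, was found in 43.8% and 22.4% of them in Angptl4+/+ at 1 and 5 dpw. In Angptl4-/- it was found in 47.6% and 19.2%. The part of this difference between days in the shares of members was not tested.

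Cells with Cx3cr1 and Adgre1 are commonly taken for macrophages, and the markers fitted that name only in part. Csf1r, the receptor for the macrophage growth factor, was detected in 63 of 67 members, Cd68, a lysosomal glycoprotein of phagocytes, in 62, Lyz2 (lysozyme) in 65 and Fcgr1, the high-affinity IgG receptor CD64, in 50. Mertk, a receptor for apoptotic cells that marks mature macrophages, was found in 19.4%. Of 8 genes of tissue-resident macrophages, Lyve1, Timd4 and Cd209f had no UMI in any member, whereas F13a1 was detected in 40 members, Mrc1 in 26, Folr2 and Cbr2 in 8 each and Cd163 in 2. Mrc1, the mannose receptor, stood at 470, 293, 20.5 and 112 CPM (UMIs scaled to a common total) in the members of Angptl4+/+ at 1 and 5 dpw and Angptl4-/- at 1 and 5 dpw. Monocyte genes were frequent, with Ccr2, the CCL2 receptor, in 86.6% of members and Plac8 in 80.6%. H2-Aa, the MHC class II alpha chain, was detected in 73.1%.

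Markers of other cell types were carried by 36 of the 67 members. At least 2 UMIs of the nonclassical monocyte genes Ace, Adgre4, Treml4, Cd300e and Spn were present in 30 of 67 members, or 44.8%. By library these were 2 of 7 in Angptl4+/+ at 1 dpw, 20 of 46 in Angptl4+/+ at 5 dpw, 7 of 7 in Angptl4-/- at 1 dpw and 1 of 7 in Angptl4-/- at 5 dpw. Dendritic cell markers were found in 7 members, neutrophil markers in 2 and T or NK cell markers in 0, and 31 members had none of these. The dendritic cell genes Ccr7, Fscn1 and Xcr1, the Langerhans cell gene Cd207, the neutrophil gene Ly6g, the mast cell gene Cpa3 and the microglial gene Sall1 were at 0 in all members. The 67 cells are therefore named by their genes and not as macrophages.

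**Figure D2:**
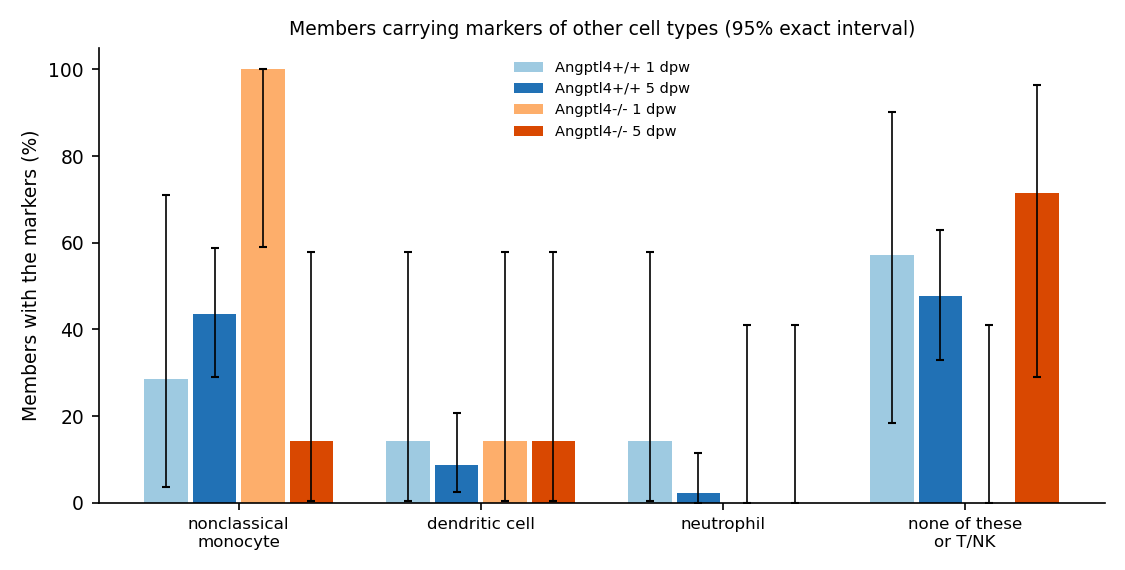
Percentage of members (y axis) that carried markers of nonclassical monocytes, dendritic cells or neutrophils, or none of these (x axis), by library. Whiskers are exact 95% intervals. All 7 members of Angptl4-/- at 1 dpw carried nonclassical monocyte markers, against 1 of 7 in Angptl4-/- at 5 dpw. The markers were called on raw UMIs, and the members' median depth in these libraries was 13957 and 8845 UMIs.

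The neutrophil markers summed to 1844 CPM in the members of Angptl4+/+ at 1 dpw, 1342 in Angptl4+/+ at 5 dpw, 501 in Angptl4-/- at 1 dpw and 183 in Angptl4-/- at 5 dpw. S100a9 was their most abundant gene, and Ly6g, which defines the type, was at 0. Of the S100a9 UMIs in Angptl4+/+ members at 5 dpw, 86.2% lay in 1 cell. The dendritic cell markers summed to 755, 90.3, 112 and 98.3 CPM in the same order, with Cd209a the most abundant. Both sums were highest in Angptl4+/+ at 1 dpw, and their part in the comparisons that follow was not tested.

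Levels of 2 gate genes and of Ccr2 are given first, as CPM of the UMIs summed over a library's members. Cx3cr1 stood at 272 CPM in Angptl4+/+ at 1 dpw, 717 in Angptl4+/+ at 5 dpw, 450 in Angptl4-/- at 1 dpw and 632 in Angptl4-/- at 5 dpw. Adgre1 stood at 136, 305, 143 and 239 CPM. Ccr2 stood at 1287, 1103, 1493 and 1418 CPM. Cx3cr1 and Adgre1 were higher at 5 dpw than at 1 dpw in both genotypes, and Ccr2 was lowest in Angptl4+/+ at 5 dpw (exact Poisson 95% interval 1004 to 1209) and highest in Angptl4-/- at 1 dpw (1261 to 1756).

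MHC class II levels split the members within every library. H2-Aa summed to 3849 CPM in Angptl4+/+ at 1 dpw, 4526 in Angptl4+/+ at 5 dpw, 3089 in Angptl4-/- at 1 dpw and 6263 in Angptl4-/- at 5 dpw. Over single cells it ran from 0 through a median of 469 to 10049 CPM in Angptl4+/+ at 1 dpw and from 0 through 1820 to 16136 in Angptl4+/+ at 5 dpw. In Angptl4-/- it ran from 0 through 2284 to 9028 CPM at 1 dpw and from 0 through 3726 to 18646 at 5 dpw. Each library thus held members with no H2-Aa beside members with at least 9028 CPM, and the ranges of the 4 libraries overlapped.

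**Figure D3:**
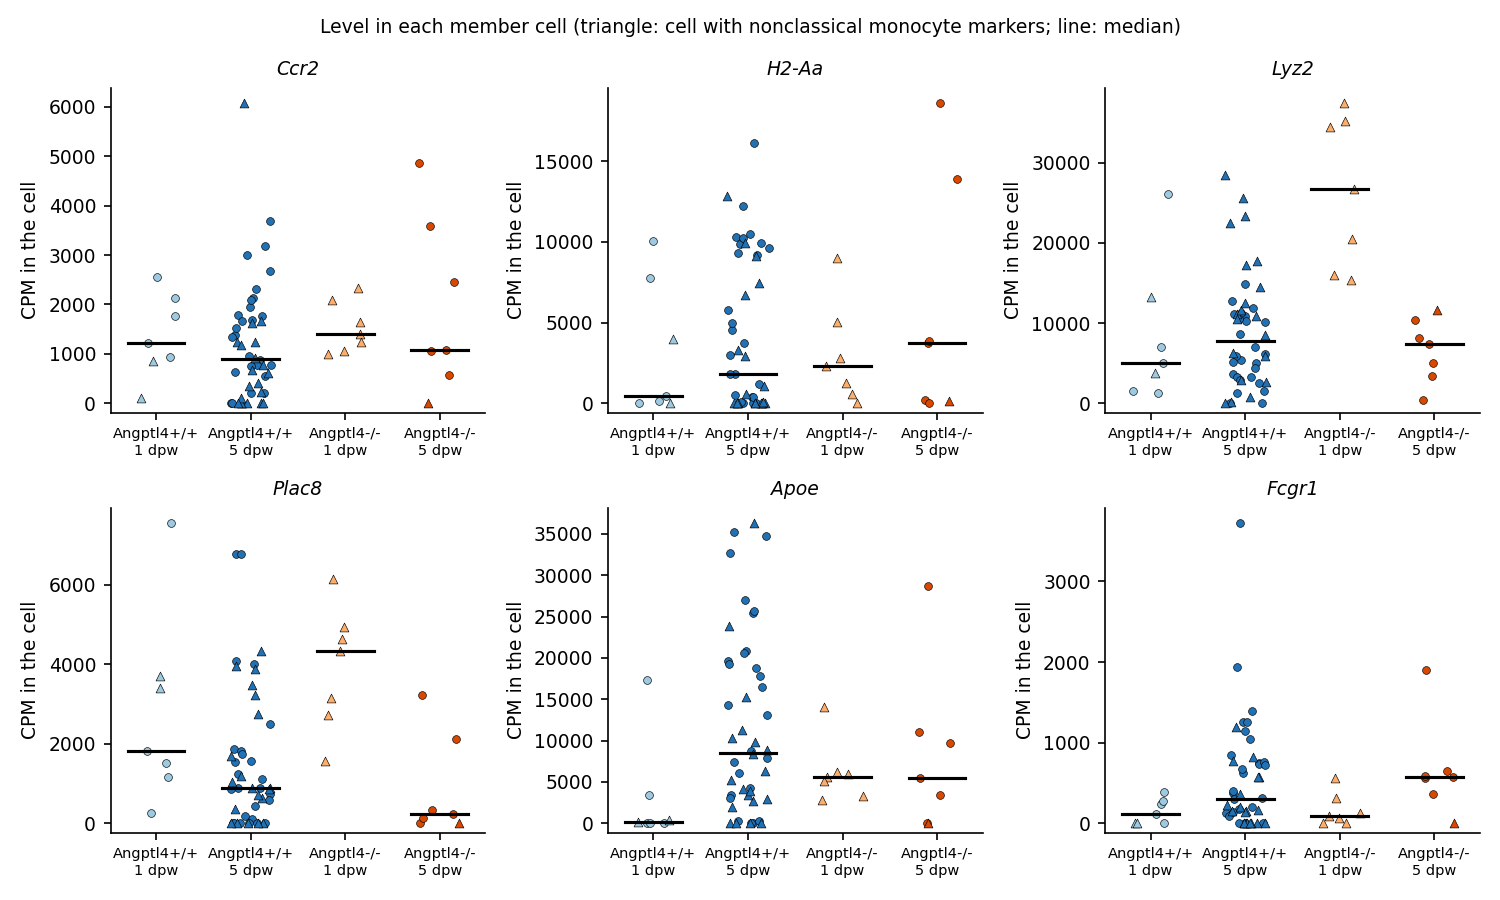
CPM in each member (y axis) of Ccr2, H2-Aa, Lyz2, Plac8, Apoe and Fcgr1 in the 4 libraries (x axis). Triangles are cells with nonclassical monocyte markers, circles the other cells, and lines medians. Lyz2 in Angptl4-/- at 1 dpw lies between 15307 and 37486 CPM, and Apoe in Angptl4+/+ at 5 dpw spreads from 0 to 36376 CPM.

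The members were compared with other cells of the same libraries over the 4 libraries as pairs, by edgeR's quasi-likelihood test with Benjamini-Hochberg adjusted p-values over all genes tested. One set of cells met the same rule but had no Cx3cr1 UMI (180 cells, the Cx3cr1-zero cells). Another had Adgre1, no Hdc, the same condition on Retnla, and at least 10 C1q UMIs (447 cells, the C1q-high cells, with C1q being the first complement component that many macrophages make). A last set met the rule except for having Ly6c2 (221 cells, the Ly6c2-positive cells). Median depths were 4231, 11321 and 11720 UMIs a cell. The comparisons share the members, so they are not independent of each other, and the rule genes are left out of every count. Genes that vary together with Cx3cr1, C1q or Ly6c2 can still differ because of how the sets were picked. The part of this was not tested.

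Against the Ly6c2-positive cells, the members had more of 5 of 7 MHC class II genes and less of Chil3, Mmp8 and Hp. Of 5500 genes tested, 16 were higher (0.291%) and 10 lower (0.182%), and 510 had an unadjusted p under 0.05. H2-Aa stood at 3849, 4526, 3089 and 6263 CPM in the members against 420, 2906, 302 and 2020 in the Ly6c2-positive cells of Angptl4+/+ at 1 and 5 dpw and Angptl4-/- at 1 and 5 dpw. The groups did not overlap, and the fitted log2 fold change was 2.16 (SE 0.32, edgeR adjusted p = 0.00202). Cd74, the invariant chain that guides class II molecules, stood at 10606, 9560, 7231 and 12567 CPM against 1018, 6219, 1032 and 4632 (log2 fold change 2.05, SE 0.31, edgeR adjusted p = 0.00202). The ratio of members to Ly6c2-positive cells was larger at 1 dpw than at 5 dpw in both genotypes, a difference that was not tested, whereas in CPM the Angptl4-/- gap was wider at 5 dpw.

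Of the 7 MHC class II genes, 5 were higher in the members than in the Ly6c2-positive cells (H2-Aa, H2-Ab1, H2-Eb1, Cd74 and the peptide-loading gene H2-DMb1), with a list median of 2.05 beside a median over all genes of 0.00. Against the Cx3cr1-zero cells and the C1q-high cells 0 of 7 passed the test, with medians of 0.68 and 1.04. H2-Aa, H2-Ab1, H2-Eb1 and Cd74 kept an adjusted p under 0.05 whichever library was left out, and H2-DMb1 kept it in 1 of 4 such fits. Without pairing by library H2-Aa did not pass (log2 fold change 1.63, edgeR adjusted p = 0.58).

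Of 9 lipid genes tested, Lpl and Apoe were higher in the members, with a list median of 0.32. Lpl, lipoprotein lipase, stood at 458, 683, 71.6 and 716 CPM in the members against 67.6, 303, 3.73 and 156 in the Ly6c2-positive cells (log2 fold change 2.04, SE 0.28, edgeR adjusted p = 0.00108). Most of it came from single cells, which held 83.8%, 56.8%, 57.1% and 96.1% of a library's Lpl UMIs. Apoe, apolipoprotein E, had a log2 fold change of 0.91 (SE 0.18, edgeR adjusted p = 0.0300), and Cd36, a scavenger receptor for lipids, one of 2.51 (SE 0.34, edgeR adjusted p = 0.00108), which had an adjusted p of 0.081 without Angptl4+/+ at 5 dpw, with log2 fold changes of 2.31 to 2.69 without 1 library. Lgmn and Cd63, both lysosomal, were higher among 12 lysosomal genes. Lpl passed in each fit that left out 1 library, whereas Apoe, Lgmn and Cd63 each passed in 1 of 4.

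The genes that were lower included Chil3 (chitinase-like protein Ym1), at 693, 266, 501 and 309 CPM in the members against 1989, 1217, 2690 and 2074. The groups did not overlap (log2 fold change -2.20, SE 0.18, edgeR adjusted p = 2.33e-06). Mmp8 (neutrophil collagenase), Hp (haptoglobin), Mgst1 and F13a1 (the coagulation factor XIII A chain) were also lower, by log2 fold changes of -3.18, -1.88, -1.91 and -1.27. Chil3, Mmp8, Hp, Mgst1 and F13a1 passed in each fit that left out 1 library. Of all 26 genes called, 14 kept their call with DESeq2, these 5 among them, and 1, Chil3, kept it without pairing by library. Of 5 classical monocyte genes tested, Chil3 among them, all 5 had negative estimates (median -1.04), while Ccr2 had an estimate of -0.32 (edgeR adjusted p = 0.48). Ly6c2, on which the sets were split, is itself a gene of this list, so lower levels of its companions are no independent result. Lyz2 also passed (log2 fold change -1.07, SE 0.21, edgeR adjusted p = 0.0227), although it was higher in the members of Angptl4-/- at 1 dpw, at 25926 against 24246 CPM, and it passed in 1 of 4 fits that left out 1 library.

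Nonclassical monocyte genes did not separate these sets by the test. Of 5 tested, 0 passed, with a median of 0.75, and Itgal had a log2 fold change of 0.52 (edgeR adjusted p = 0.50). Of the Ly6c2-positive cells, 39.4% carried nonclassical monocyte markers, beside 44.8% of the members. With the cells carrying markers of other types left out of both sets, which left 31 members in 3 libraries, H2-Aa had a log2 fold change of 1.60 and an edgeR adjusted p of 0.24. Of the 26 genes 4 kept their call (Hp, Lpl, Lyz2 and Tmsb10), and 24 could be tested, all in the same direction as before. Chil3 had a log2 fold change of -1.80 (edgeR adjusted p = 0.064) and F13a1 one of -0.53 (edgeR adjusted p = 0.47).

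Against the C1q-high cells, the members had less of 7 of 12 chemokine ligands, 5 of 12 lysosomal genes and 3 of 4 resident macrophage genes tested, and more of Itgal and Adgre4. Of 4376 genes tested, 48 were higher (1.10%) and 67 lower (1.53%), and 633 had an unadjusted p under 0.05. Itgal stood at 223, 159, 327 and 477 CPM in the members against 34.3, 37.2, 44.5 and 33.2 in the C1q-high cells (log2 fold change 2.90, SE 0.30, edgeR adjusted p = 6.48e-05). Adgre4, an F4/80 relative, stood at 74.3, 90.3, 184 and 169 CPM against 15.6, 17.1, 10.3 and 30.0 (log2 fold change 2.70, SE 0.34, edgeR adjusted p = 0.000641). Both passed whichever library was left out. In Angptl4-/- at 5 dpw, however, 97.1% of the Itgal UMIs and all of the Adgre4 and Spn UMIs came from 1 member.

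Spn (CD43, leukosialin) was higher by 2.03 on the log2 scale (SE 0.36, edgeR adjusted p = 0.00769) and passed in 2 of the 3 fits without 1 library that tested it, with log2 fold changes of 1.69 to 1.97. It missed the threshold without Angptl4-/- at 5 dpw (0.094). Adgre4 and Spn were the 2 genes called among 3 nonclassical monocyte genes tested. Il1b, the cytokine interleukin-1 beta, stood at 2438, 1410, 1585 and 1165 CPM against 1346, 622, 763 and 628 (log2 fold change 1.06, SE 0.19, edgeR adjusted p = 0.00943), and it was the gene called among 5 inflammatory cytokines. Plac8 was also higher, as was Runx3, a transcription factor. Without 1 library, Il1b and Plac8 passed in 3 of 4 fits and Runx3 in 0 of 4, where its log2 fold change was 0.82 to 1.18.

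Chemokine ligands, which call leukocytes to a site, were lower in 7 of 12 tested (Ccl2, Ccl6, Ccl7, Ccl8, Ccl9, Ccl12 and Cxcl10), with a list median of -1.67. Ccl8 had no UMI in any member and 695, 111, 469 and 126 CPM in the C1q-high cells. Set against the floor of 3 UMIs over all members it was at least 38.3-fold lower (edgeR adjusted p = 1.98e-05). Ccl2, the ligand of CCR2, stood at 99.0, 205, 81.8 and 84.3 CPM in the members against 533, 345, 715 and 355 (log2 fold change -1.80, SE 0.33, edgeR adjusted p = 0.00896). All 12 estimates were below 0. Ccl2, Ccl7, Ccl8, Ccl12 and Cxcl10 passed whichever library was left out, Ccl6 in 3 of 4 such fits and Ccl9 in 1 of 4.

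Lysosomal genes were lower in 5 of 12 (the proteases Ctsb, Ctsd, Ctsl and Lgmn and the membrane protein Cd63), with a list median of -0.62. Ctsb stood at 928, 1923, 818 and 1236 CPM in the members against 4468, 3976, 5278 and 3208 (log2 fold change -1.76, SE 0.26, edgeR adjusted p = 0.00222). Of the 4 resident macrophage genes tested, Folr2 (a folate receptor), Cbr2 (carbonyl reductase) and F13a1 were lower. Maf, a transcription factor of mature macrophages, stood at 124, 344, 81.8 and 253 CPM against 938, 773, 1166 and 745 (log2 fold change -2.10, SE 0.34, edgeR adjusted p = 0.00420). The members' lysosomal sum of 7784, 12319, 7824 and 8580 CPM lay below the C1q-high sum of 19151, 17587, 20886 and 14630 CPM in each library. All 11 interferon-induced genes tested had negative estimates (median -0.90), and Ifit2 and Rsad2 passed. Ctsb, Maf, Folr2 and Cbr2 passed in each fit that left out 1 library, Ctsd in 3 of 4, Ctsl, Lgmn, Cd63, F13a1 and Rsad2 in 2 of 4 and Ifit2 in 1 of 4.

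Nonclassical monocyte markers were carried by 44.8% of the members and by 18.6% of the C1q-high cells. With the cells carrying markers of other types left out of both sets, 17 of the 115 genes kept their call, and 94 of the 97 that could be tested kept their direction. Ccl6, Ccl7, Ccl8, Cxcl10, Ctsb, Ctsd, Folr2, Cbr2, Maf, Il1b and Plac8 passed under that setting, whereas Ccl2, Ccl9, Ccl12, Ctsl, Lgmn, Cd63 and F13a1 did not, and Itgal, Adgre4 and Spn had too few UMIs to be tested. For Ctsb the log2 fold change was then -1.37, and for Ccl2 it was -0.99.

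The test did not separate members and C1q-high cells by Ccr2 or Csf1r. Ccr2 had a log2 fold change of -0.01 (SE 0.20) and Csf1r one of 0.32 (SE 0.20), with edgeR adjusted p-values of 0.99 and 0.52.

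Against the Cx3cr1-zero cells few genes passed. Of 3394 tested, 6 were higher (0.177%) and 11 lower (0.324%), and 454 had an unadjusted p under 0.05. Adgre4 stood at 74.3, 90.3, 184 and 169 CPM in the members against 19.2, 7.59, 4.67 and 14.3 in the Cx3cr1-zero cells (log2 fold change 3.47, SE 0.47, edgeR adjusted p = 0.00871). Itgal had a log2 fold change of 2.99 (SE 0.41, edgeR adjusted p = 0.00871). Abi3, Plac8, Gngt2 and Tmem51 completed the higher genes. Without 1 library the log2 fold change of Adgre4 lay between 3.13 and 3.89, but it missed the threshold without Angptl4+/+ at 5 dpw (0.063) and without Angptl4-/- at 5 dpw (0.076). That of Itgal lay between 2.55 and 3.63, and it missed the threshold without Angptl4-/- at 5 dpw (0.076). Plac8, Abi3 and Gngt2 passed in 1 of 4 such fits and Tmem51 in 0 of 4.

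Genes lower than in the Cx3cr1-zero cells were led by Ccr7, the receptor that takes dendritic cells to lymph nodes, at 0 in all members and at 605, 129, 285 and 191 CPM in the Cx3cr1-zero cells. It was at least 56.5-fold lower (edgeR adjusted p = 0.00437). Lcn2 (lipocalin-2), Retnlg and Slpi, all abundant in neutrophils, were lower by log2 fold changes of -3.45, -2.69 and -2.55, and the chemokines Ccl5, Ccl7 and Cxcl3 were lower among 11 chemokine ligands tested (list median -2.07). Ccr7 and Lcn2 passed whichever library was left out, Ccl7 in 3 of 4 such fits, Ccl5 and Cxcl3 in 2 of 4 and Slpi in 1 of 4, and Retnlg passed in the 1 such fit that tested it. The Cx3cr1-zero cells held 43 cells with neutrophil markers and 27 with dendritic cell markers among 180, against 2 and 7 among the 67 members. Their neutrophil markers summed to 2339, 6120, 10258 and 1636 CPM. With cells carrying other markers left out of both sets, 6 of the 17 called genes could be tested and 3 kept their call. Thinned to 5000 UMIs, 5 of the 17 could be tested and 3 kept their call. Beyond these settings, the part of such cells and of the shallower depth in the lower genes was not tested.

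**Figure D4:**
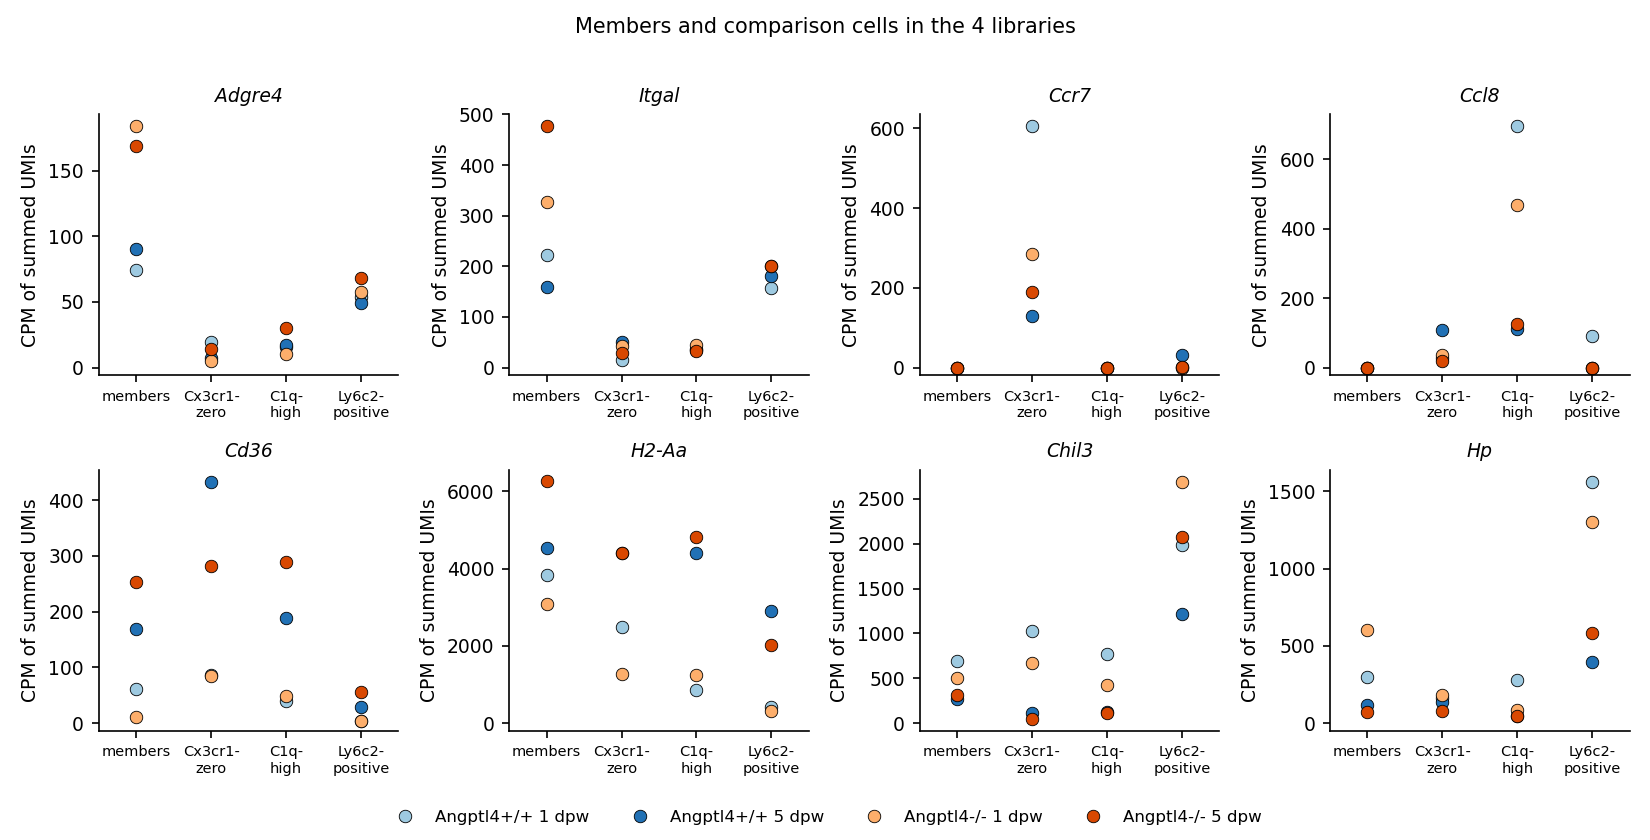
CPM of UMIs summed over cells (y axis) for 8 genes in members, Cx3cr1-zero, C1q-high and Ly6c2-positive cells (x axis), 1 point for each library. H2-Aa is higher and Chil3 lower in the members than in the Ly6c2-positive cells in every library, Ccl8 and Ccr7 are at 0 in the members, and Itgal reaches 477 CPM in Angptl4-/- members at 5 dpw.

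**Figure D5:**
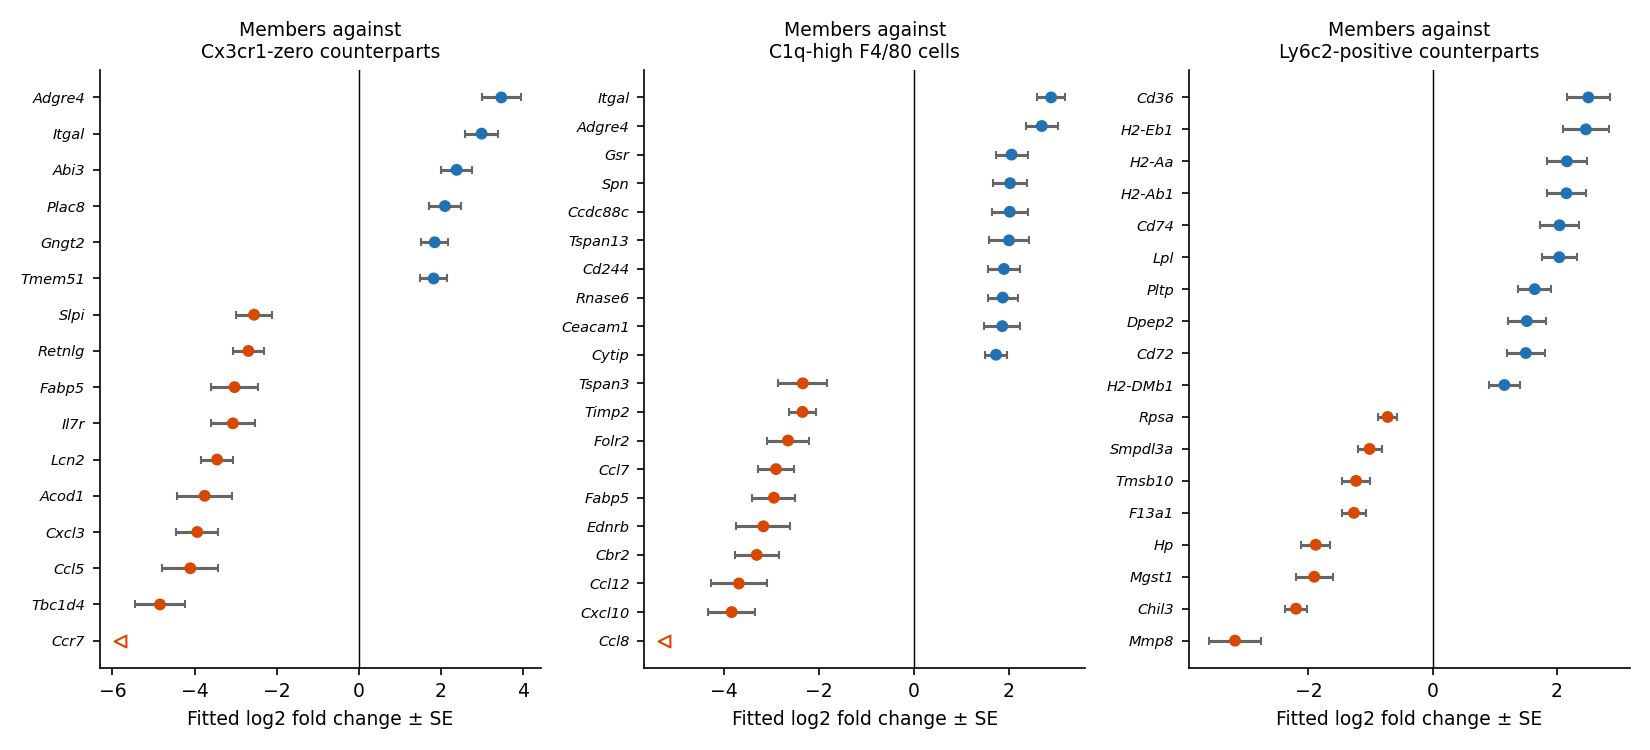
Fitted log2 fold change (x axis) of named genes (y axis) between members and each comparison set, with standard errors. Blue points are higher and orange lower in the members, and open triangles give bounds for Ccr7 and Ccl8, which had 0 UMIs in the members.

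The 5 dpw members of Angptl4-/- mice, 7 cells against 46, were then compared with those of Angptl4+/+ mice. Genes counted as different had at least 50 UMIs over both libraries and a log2 ratio of at least 1 in size. Of 1506 such genes, 29 were higher (1.93%) and 124 lower (8.23%) in Angptl4-/-, but 42 of the 153 had an interval that held 0. Of these 153 genes 19.0% were the higher ones, or 8.76% with TMM scaling, which gave 17 higher and 177 lower. The members summed to 409845 UMIs in Angptl4+/+ and 71216 in Angptl4-/-, so the limit of 50 UMIs was met mainly through Angptl4+/+. With few UMIs in Angptl4-/-, counting error passes 2-fold more readily downwards than upwards. Its part in the split was not tested. With at least 200 UMIs, 4 genes were higher and 12 lower.

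Lower values in the Angptl4-/- members included Ctsd, a lysosomal protease, and Ccl6, a chemokine. Ccl6 stood at 112 CPM in Angptl4-/- (4 of 7 cells) and 854 in Angptl4+/+ (29 of 46 cells), a log2 ratio of -2.93 (exact binomial 95% interval -4.15 to -1.93). Ctsd stood at 267 CPM in Angptl4-/- (7 of 7 cells, from 113 through a median of 212 to 687) and 991 in Angptl4+/+ (42 of 46 cells, from 0 through 458 to 5199), a log2 ratio of -1.89 (-2.64 to -1.23). Hmox1, heme oxygenase 1, stood at 56.2 and 756 CPM (log2 ratio -3.75, -5.64 to -2.38), with 46.1% of the Angptl4+/+ UMIs in 1 cell. The cells of both genotypes overlapped in all of these genes. Gadd45b, Kctd12, Egr1 and Slc3a2 were lower too, by log2 ratios between -2.43 and -1.68. These 4 genes rested on 4, 4, 9 and 7 UMIs in Angptl4-/-, near the floor of 3 UMIs, with 88.9% of the Egr1 UMIs in 1 cell. Hmox1 rested on 4 UMIs in 2 Angptl4-/- cells.

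The higher genes rested on 1 cell. Fn1, fibronectin, stood at 5448 CPM in Angptl4-/- and 1291 in Angptl4+/+ (log2 ratio 2.08, 1.88 to 2.27), with 83.2% of the Angptl4-/- UMIs in the library's deepest member. That cell had 18836 UMIs, or 26.4% of all UMIs of the 7, carried nonclassical monocyte markers, and was the highest cell for 7 of the 10 genes with the largest ratios. With the cells carrying markers of other types left out, Fn1 had a log2 ratio of -0.98.

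By group, 0 of 7 MHC class II genes passed 2-fold in either direction at 5 dpw (median log2 ratio 0.46, beside -0.07 over all genes). Of 12 lysosomal genes 1 was lower (Ctsd, list median -0.55), which is close to the 8.23% of all genes that were lower. Of 7 efferocytosis and scavenger genes 3 were lower (Msr1, Stab1 and Trem2, list median -0.91) and of 8 lipid genes 2 were lower (Fabp5 and Lipa, list median -0.43). Of 7 chemokine ligands, Ccl2, Ccl4 and Ccl6 were lower. These list counts rest on the same limit of 50 UMIs, met mainly through Angptl4+/+, which favours lower values in Angptl4-/-. Apoe stood at 6417 CPM in Angptl4-/- (6 of 7 cells) and 11743 in Angptl4+/+ (42 of 46), within the 2-fold limit. Fcgr1 stood at 491 and 510 CPM and Csf1r at 927 and 715 CPM, both within 2-fold.

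At 1 dpw, 7 members of each genotype were compared. Of 534 genes, 16 were higher in Angptl4-/- (3.00%) and 25 lower (4.68%). Lyz2 stood at 25926 CPM in Angptl4-/- members (15307 through a median of 26749 to 37486 over cells) and 7958 in Angptl4+/+ members (1229 through 4979 to 26129), a log2 ratio of 1.70 (1.58 to 1.83). Tmem176b, a membrane channel of antigen-presenting cells, stood at 1217 and 260 CPM (log2 ratio 2.23, 1.55 to 2.97). Apoe stood at 6208 CPM in Angptl4-/- members (7 of 7 cells, 2801 to 14030) and 2376 in Angptl4+/+ members (4 of 7 cells), where 1 cell held 77.1% of the UMIs. For Lyz2, 1 Angptl4+/+ cell lay within the range of the Angptl4-/- cells and the others lay below it. All 7 Angptl4-/- members carried nonclassical monocyte markers, against 2 of 7 in Angptl4+/+. The part of that difference in makeup was not tested.

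Of 16 chemokine ligands, 6 had at least 50 UMIs over both libraries (Ccl3, Ccl4, Ccl6, Ccl9, Cxcl2 and Pf4). These 6 were more than 2-fold lower in Angptl4-/- members at 1 dpw, with a list median of -3.57 beside 0.07 over all genes. Ccl4 and Cxcl2 met the limit through Angptl4+/+, with 161 and 290 UMIs against 8 and 22 in Angptl4-/-. A limit met in that way favours lower values in Angptl4-/-. Ccl6 and Ccl9 had 163 and 108 UMIs in Angptl4+/+ against 94 and 62. Cxcl2, a neutrophil attractant, stood at 225 CPM in Angptl4-/- (7 of 7 cells) and 3589 in Angptl4+/+ (5 of 7 cells), a log2 ratio of -4.00 (-4.69 to -3.37). Ccl4 stood at 81.8 and 1992 CPM (-4.61, -5.84 to -3.59). A single Angptl4+/+ cell held 74.5% of the Cxcl2 UMIs and 78.3% of the Ccl4 UMIs. For Ccl6 and Ccl9 the highest Angptl4+/+ cell held 57.7% and 46.3%. Per cell the medians of Cxcl2 were 180 CPM in Angptl4-/- and 1592 in Angptl4+/+, and the cells overlapped. Of 6 MHC class II genes, 0 passed 2-fold.

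From 1 to 5 dpw in Angptl4+/+, 138 of 1564 genes were higher (8.82%) and 67 lower (4.28%), and 35 of the 205 had an interval that held 0. The higher ones were 67.3% of the 205, or 86.3% with TMM scaling, which gave 202 higher and 32 lower. The members summed to 409845 UMIs at 5 dpw and 80804 at 1 dpw, so the limit on UMIs was met mainly through 5 dpw. With fewer UMIs at 1 dpw, counting error passes the fold limit more readily upwards than downwards. Its part in the split was not tested. Among the higher genes, Apoe went from 2376 CPM (median over cells 113) to 11743 CPM (median 8541), a log2 ratio of 2.31 (2.10 to 2.52). Fth1, the ferritin heavy chain, went from 3997 to 16728 CPM (2.07, 1.90 to 2.23), and Fcgr1 from 124 to 510 CPM (2.04, 1.14 to 3.12). Trem2, a lipid-sensing receptor, went from 111 to 427 CPM (1.94, 0.98 to 3.09) and Cxcl16, a scavenger receptor and chemokine, from 61.9 to 342 CPM (2.46, 1.21 to 4.11). In each of these genes cells of both days overlapped.

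Of 12 lysosomal genes, 5 were higher at 5 dpw in Angptl4+/+ (Ctsb, Ctsd, Ctsz, Lgmn and Cd63, list median 0.73). Of 7 efferocytosis and scavenger genes 4 were higher (Cd36, Stab1, Trem2 and Itgav, list median 1.44). Of 8 lipid genes 4 were higher (Apoe, Abca1, Plin2 and Lipa, list median 0.97), beside a median of -0.04 over all genes. These list counts rest on the same limit on UMIs, met mainly through 5 dpw, which favours higher values at 5 dpw. The part of that limit in the list counts was not tested. Lower at 5 dpw were Klf2, a transcription factor of quiescent blood monocytes, from 1200 to 478 CPM (-1.33, -1.69 to -0.96), Plac8, from 2822 to 1376 CPM, and Chil3, from 693 to 266 CPM (-1.38, -1.86 to -0.89). Ccl4 and Cxcl2 were lower by log2 ratios of -3.28 and -1.96, again against 1 dpw values of which 1 cell held 78.3% and 74.5%.

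In Angptl4-/- the members of the same 2 days, 7 cells each, gave 38 of 496 genes higher (7.66%) and 47 lower (9.48%) at 5 dpw. Plac8 went from 3989 CPM (7 of 7 cells, 1580 to 6142) to 688 CPM (5 of 7 cells, 0 to 3238), a log2 ratio of -2.54 (-2.99 to -2.10). Lyz2 went from 25926 to 6782 CPM (-1.93, -2.08 to -1.79), and its cells did not overlap, since the highest at 5 dpw had 11627 CPM and the lowest at 1 dpw 15307. Of 6 MHC class II genes 3 were higher (H2-Aa, H2-Ab1 and H2-Eb1, list median 0.91, beside -0.23 over all genes), with H2-Eb1 going from 1953 to 6347 CPM (1.70, 1.45 to 1.95). A single cell held 43.7%, 50.3% and 45.1% of the H2-Aa, H2-Ab1 and H2-Eb1 UMIs at 5 dpw, and 41.7%, 39.9% and 44.5% at 1 dpw. Apoe stood at 6208 and 6417 CPM. The share of members with nonclassical monocyte markers went from 7 of 7 to 1 of 7, and its part in these values was not tested. Gm42418, a transcript that overlaps ribosomal RNA, went from 4224 to 61742 CPM, with 65.5% of the later UMIs in 1 cell.

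Within the largest group, Angptl4+/+ at 5 dpw, the 20 members with nonclassical monocyte markers were set beside the 26 without, as a description of 1 library and with no test. Of 1274 genes, 59 were at least 2-fold higher (4.63%) and 87 lower (6.83%) in the cells with the markers, the 5 marker genes left out. Itgal stood at 330 CPM in cells with markers (14 of 20 cells) and 26.0 in cells without (2 of 26), a log2 ratio of 3.67 (2.46 to 5.17). Gngt2, a G protein subunit, stood at 889 and 333 CPM, Tmsb10 at 1123 and 459 CPM, and Lyz2 at 10726 and 6431 CPM. Itgal was thus detected in most cells with the markers and in few without.

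Mrc1, Fcgr1 and Maf were among the genes lower in the cells with the markers. Mrc1 stood at 33.5 CPM with markers (4 of 20 cells) and 494 without (17 of 26), a log2 ratio of -3.88 (-5.36 to -2.71). Fcgr1 stood at 252 CPM (12 of 20) and 710 (23 of 26), and Maf at 190 (9 of 20) and 463 (18 of 26). Trem2, Apoe and H2-Aa had log2 ratios of -1.12, -0.96 and -0.88, and Ccr2 one of -0.91. The macrophage genes Csf1r, Lyz2, Cd14 and Cd68 lay within 2-fold. Csf1r stood at 782 and 663 CPM (log2 ratio 0.24, -0.10 to 0.58), and the log2 ratios of Lyz2, Cd14 and Cd68 were 0.74, 0.37 and -0.18. The 2 sets were of like depth, with median UMIs of 8681 and 9502 a cell.

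Variation among the Angptl4+/+ members at 5 dpw was largest for Fth1 and Apoe. In 40 members thinned to 5000 UMIs the variance was 142 times the mean for Fth1, 50.1 for Apoe, 44.4 for Spp1 (osteopontin), 43.6 for Cd74, 42.0 for Gm42418 and 35.7 for H2-Ab1, beside a median of 1.33 over 1629 genes. Apoe ran from 0 to 190 UMIs with a median of 41.5, so its spread was shared by many cells. Spp1 was found in 5 of the 40 cells, with up to 62 UMIs, so its spread came from few.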

How the data were processed

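Live CD45+ cells from 4 wound samples were profiled on the 10x Chromium platform, and per the labels the authors aligned reads to mm10 (GRCm38) with Cell Ranger 3.1.0 and used Seurat 3.0 downstream. The deposited matrices hold raw UMI counts per gene and cell. Cells with at least 200 genes and at most 10% mitochondrial UMIs were kept, the gate (which has 1 more condition; this and some genes are not reported here) was applied to raw UMIs, and UMIs were summed over members. Scrublet scored 2 members as doublets, which were kept. The members and gene lists were chosen with earlier results of these data known.

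With 1 library a group, conditions were compared by shares and log2 ratios with exact intervals that cover counting error only (genes with at least 50 UMIs, zeros set to 3 UMIs), without a test. Members and comparison cells were compared by edgeR 4.0.16 in R 4.3.3 (quasi-likelihood, TMM, filterByExpr, library as a block, adjusted p under 0.05). The 4 pairs come from libraries that differ in genotype and day, and nothing says how many animals each holds. The pairing comes from the shared library. Both calculations were tested on simulated data.

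Named genes were the 10 highest and 10 lowest log2 ratios with at least 100 UMIs, the 10 highest and 10 lowest fitted changes past the test with at least 50 CPM and 1 direction in 4 libraries, the 10 most variable genes, and genes of the lists. DESeq2 1.42.0, other filters and scalings, thinning to 5000 UMIs and leaving out each library were tried.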

Additional observations from a re-analysis of the deposited data

Results flagged for a closer look

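Genotype differences with opposite signs on the 2 days, or day differences with opposite signs in the 2 genotypes, were listed for the share of cells whatever its interval, and for named genes with at least 100 UMIs in both comparisons, log2 ratios of at least 1 in size in both and intervals that did not hold 0. The share and 3 genes met this, and genes with smaller changes of sign, such as Apoe and H2-Aa, are not listed. None of these differences between differences was tested, since each group was 1 library. The share of Cx3cr1+ Adgre1+ cells without Ly6c2 in Angptl4-/- minus Angptl4+/+ was 0.0150 percentage points at 1 dpw, with an interval that held 0, and -0.782 at 5 dpw. Fn1 had log2 ratios, Angptl4-/- over Angptl4+/+, of -1.33 at 1 dpw, where 64.4% of the Angptl4+/+ UMIs lay in 1 cell, and 2.08 at 5 dpw, where 83.2% of the Angptl4-/- UMIs lay in 1 cell. Cxcl2 had log2 ratios, 5 over 1 dpw, of -1.96 in Angptl4+/+, where 74.5% of the 1 dpw UMIs lay in 1 cell, and 2.42 in Angptl4-/-. Tmem176a had 1.29 in Angptl4+/+ and -1.61 in Angptl4-/-.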

How the results depend on the processing

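Shares are differences in percentage points in the order 1 dpw genotype, 5 dpw genotype, Angptl4+/+ 5 minus 1 dpw and Angptl4-/- 5 minus 1 dpw. Without the Ly6c2 condition they were -0.282, -1.20, 1.29 and 0.370, and of Adgre1+ Hdc- cells 0.378, -3.06, 3.16 and -0.279. Without the C1q condition the last 3 were -1.50, 2.18 and 0.656. Thinned to 5000 UMIs they were 0.236 for genotype at 1 dpw and 1.68 and 0.429 for days in Angptl4+/+ and Angptl4-/-. With cells carrying other markers left out they were -0.339 for genotype at 5 dpw and 0.370 for days in Angptl4+/+. For days in Angptl4-/- the difference was then 0.106 (0.00526 to 0.247), from 5 members at 5 dpw and 0 at 1 dpw, an interval that did not hold 0. Dropping the Hdc condition, chosen after seeing the data, moved none of the 4 beyond its interval.

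Counts of genes past 2-fold, higher and lower, in the same order were 87 and 114, 167 and 535, 450 and 261, and 121 and 160 with at least 20 UMIs, and 2 and 4, 4 and 12, 22 and 11, and 8 and 7 with at least 200. Thinned, they were 5 and 10, 14 and 60, 55 and 30, and 15 and 17. TMM scaling, which shifted all log2 ratios by -0.14 at 5 dpw and by 0.23 in Angptl4+/+, gave 17 higher at 5 dpw and 32 lower in Angptl4+/+. With cells carrying other markers left out the counts were 13 and 67 at 5 dpw and 70 and 40 in Angptl4+/+, and the comparisons with Angptl4-/- at 1 dpw gave no value, since 0 members remained. Reversed at 5 dpw under that setting were Fn1 (-0.98), Cd9 (-0.00211), Ifitm1 (-1.86), Itgb2 (-0.10) and S100a8 (1.36, and 1.74 when thinned), and the cause was not tested.

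Against Cx3cr1-zero cells the higher and lower counts were 11 and 35 with DESeq2, 34 and 219 without a filter, 26 and 61 in the 5 dpw libraries alone and 1 and 2 when thinned. Leaving out 1 library gave 1 to 4 and 4 to 17. Against C1q-high cells they were 93 and 193 without a filter, 16 and 32 when thinned and 8 and 17 with cells carrying other markers left out, and 19 to 37 and 24 to 69 without 1 library. Against Ly6c2-positive cells they were 49 and 67 without a filter and 2 and 4 with cells carrying other markers left out, with 6 higher by DESeq2 and 4 in the 5 dpw libraries, and 7 to 28 and 6 to 29 without 1 library. Without the replicate block, which pairs sets by library, 17 were lower than in Cx3cr1-zero cells, 38 lower than in C1q-high cells, and 0 higher and 1 lower (Chil3) than in Ly6c2-positive cells. With 7 members in 3 of the 4 libraries, depth limits the genes that could be compared at 1 dpw to 534 and in Angptl4-/- to 496.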
